A study of Mus musculus with 4 samples.

Results

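miR-122-5p, miR-192-5p and miR-194-5p are microRNAs (miRNAs) best known from liver and kidney epithelium, and they also circulate in plasma. They were taken by name from small RNA profiles of mouse aorta, and all 3 were found among the 1152 listed entries, 1079 of which carry a miRNA name. The CKD group had 2 libraries and the Sham group 2 libraries, each from a pool of 4 samples of aorta from 12-week wild type C57BL/6 mice. Per the labels, chronic kidney disease (CKD) was produced by removing the poles of the left kidney and, 1 week later, the right kidney, followed by 4 weeks on a 2% phosphate diet with 0.45% NaCl in the water, to induce vascular calcification. The labels word this treatment in the same way for the Sham group, and the sources used here do not give the handling of the Sham mice.

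miR-122 is the dominant miRNA of hepatocytes, where it acts in cholesterol and lipid metabolism, and its plasma level is a widely used marker of liver damage. miR-192 and miR-194 are made together from shared primary transcripts in liver, kidney tubule and gut epithelium. miR-192 is known in kidney for repressing Zeb1 and Zeb2, which encode repressors of the epithelial program, and miR-215, made beside a second copy of miR-194, shares its seed, the stretch that pairs with target messages. None of these miRNAs is a textbook product of smooth muscle or endothelium, the main cells of the vessel wall.

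The sequences show which of these miRNAs can be told apart and which share a seed. The RefSeq table used held no entry for miR-122, so no sequence of it is shown. Mature strands are given 5′ to 3′ from RefSeq (GRCm38.p6), with the seed (bases 2 to 8) in capitals.
miR-192-5p: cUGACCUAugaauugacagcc
miR-215-5p: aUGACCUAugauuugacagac
miR-194-5p: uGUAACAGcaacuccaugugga
miR-192-5p and miR-215-5p had the same seed and were identical at 18 of 21 bases. Counted from the 5′ end of miR-192-5p, the changes to miR-215-5p were C1A, A12U and C20A. Of the 1679 mature names in the RefSeq table no other shared the miR-192 seed, and none shared the seed of miR-194-5p.

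miR-194-5p is encoded by a pair of hairpins that give the identical mature strand, so its reads cannot be assigned to either gene. In GRCm38, Mir194-2 lies on chromosome 19 from 6264643 to 6264728 and Mir192 on the same strand from 6264844 to 6264932, with 115 bases between them and no other annotated gene over either. Mir194-1 lies on chromosome 1 from 185313319 to 185313385 in an intron of the noncoding gene 2010103J01Rik, and Mir215 lies from 185313581 to 185313692 in an exon of it. Both sit opposite an intron of Iars2. The hairpins of the chromosome 19 pair are shown with both mature strands in capitals.
Mir194-2: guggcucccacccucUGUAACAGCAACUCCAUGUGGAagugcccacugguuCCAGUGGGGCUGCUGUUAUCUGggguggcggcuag
Mir192: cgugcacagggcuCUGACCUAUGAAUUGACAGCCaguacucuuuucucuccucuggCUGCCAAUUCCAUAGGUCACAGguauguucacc
The partner strands of the miR-194 hairpins differ, and capitals mark the differing bases here.
miR-194-2-3p: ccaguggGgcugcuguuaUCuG
miR-194-1-3p: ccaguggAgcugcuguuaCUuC
Counted from the 5′ end of miR-194-1-3p, the changes to miR-194-2-3p were A8G, C19U, U20C and C22G. Over the 4 libraries miR-194-2-3p had 13 reads and miR-194-1-3p had 1 read.

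Values are deposited counts per 1000000 reads of the listed entries (CPM). Whole reads recovered from them totalled 17532748 and 16658810 in the CKD libraries, and 17520690 and 16878392 in the Sham libraries. The aortic origin showed in miR-143-3p, the main smooth muscle miRNA, which ranked first in every library with 41.1% and 40.8% of reads in CKD and 79.8% and 72.5% in Sham. With totals fixed, entries other than miR-143-3p therefore shared 58.9% and 59.2% of reads in CKD, against 20.2% and 27.5% in Sham. The median log2 difference of the 479 entries with a mean of at least 1 CPM was 1.34 (CKD minus Sham, log2(CPM + 1)). Each member is therefore also given after trimmed mean of M values (TMM) scaling, which removes the shift that most entries share. Replicate libraries were further apart than counting allows, with a chi-square of 499 per degree of freedom for CKD and 579 for Sham. Each of 7 red cell entries was higher in CKD 2 than in CKD 1. With miR-486a-5p and miR-486b-5p, which hold the same values, counted once, their summed levels were 1067 CPM in CKD 1 and 5023 CPM in CKD 2, and 225 CPM in Sham 1 and 863 CPM in Sham 2. Of all tested entries 66.6% were higher in CKD 1 than in CKD 2, and 90.2% were higher in Sham 2 than in Sham 1. In such bulk tissue, a change in the number of cells of a type and a change in RNA per cell cannot be told apart.

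miR-194-5p was the most abundant of the 3, then miR-192-5p, then miR-122-5p, in each of the 4 libraries. miR-194-5p ranked 84th of the listed entries in both CKD libraries and 88th in both Sham libraries, and miR-192-5p 95th and 118th in CKD and 123rd and 125th in Sham. miR-122-5p ranked 112th and 155th in CKD, and 342nd and 156th in Sham. Within every library neighbours in this order differed beyond their 95% counting intervals. Across libraries of CKD the ranges of miR-192-5p and miR-122-5p overlapped, and across libraries of Sham no ranges overlapped. Adaptor ligation captures small RNAs unequally, so an order of read counts is not an order of molecules.

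miR-122-5p, the hepatocyte miRNA, had 161 and 56.0 CPM in CKD 1 and CKD 2, and 1.43 and 25.5 CPM in Sham 1 and Sham 2. Its gene, Mir122, lies on chromosome 18 from 65248861 to 65248926 (GRCm38) in an exon of the lincRNA AC157910.3. The levels came from 2817 and 932 reads in CKD, and 25 and 430 reads in Sham. CKD 1 was high and Sham 1 very low, and on the log2 scale CKD 2 and Sham 2 were closer to each other than to the other library of their own group. The exact Poisson 95% interval in Sham 1 was 0.923 to 2.11 CPM and in Sham 2 it was 23.1 to 28.0 CPM, so the gap between the Sham libraries was not counting error. After TMM scaling the levels were 88.8 and 33.7 CPM in CKD, and 2.99 and 36.6 CPM in Sham, and the groups overlapped because Sham 2 lay above CKD 2. As CPM of the reads other than miR-143-3p the levels were 273 and 94.5 in CKD, and 7.07 and 92.7 in Sham, so CKD 2 and Sham 2 were nearly level.

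miR-192-5p, the epithelial miRNA, had 210 and 135 CPM in CKD 1 and CKD 2, and 31.3 and 44.0 CPM in Sham 1 and Sham 2. Both CKD libraries were above both Sham libraries. After TMM scaling the levels were 116 and 81.5 CPM in CKD, and 65.5 and 63.3 CPM in Sham. The groups still did not overlap, and the CKD libraries were further apart than the Sham libraries.

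miR-194-5p had 302 and 260 CPM in CKD 1 and CKD 2, and 65.8 and 94.9 CPM in Sham 1 and Sham 2. After TMM scaling the levels were 167 and 156 CPM in CKD, and 137 and 136 CPM in Sham. The groups did not overlap on either scale, and TMM scaling brought their means to a ratio of 1.18, against 3.50 on the deposited scale.

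**Figure D1:**
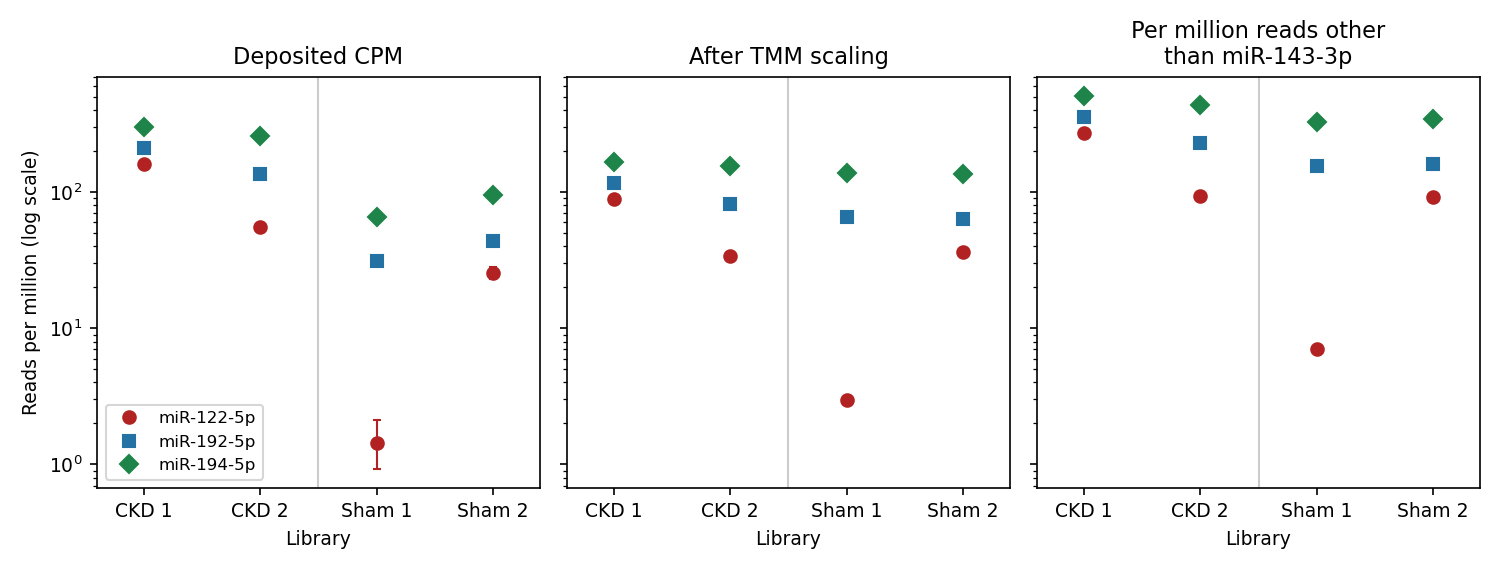
Level of the 3 miRNAs in each library on 3 scales (log axes, CPM). Points are single libraries, and bars in the first panel are exact Poisson 95% counting intervals, mostly smaller than the points. miR-122-5p in Sham 1 (1.43 CPM) stands far below the other libraries, while miR-194-5p becomes nearly level after TMM scaling, at 167 and 156 CPM in CKD and 137 and 136 CPM in Sham.

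On the deposited scale all 3 miRNAs rose in CKD, and with TMM scaling none passed the threshold of 0.05. miR-122-5p averaged 108 ± 74.0 CPM in CKD and 13.5 ± 17.0 CPM in Sham (SD, n = 2 each), and the log2 difference was 3.58 (SE 0.85) at a limma adjusted p = 0.0032. miR-192-5p averaged 172 ± 52.5 CPM in CKD and 37.7 ± 8.97 CPM in Sham (SD, n = 2 each), with 2.15 (SE 0.41, limma adjusted p = 0.0015). miR-194-5p averaged 281 ± 29.9 CPM in CKD and 80.3 ± 20.6 CPM in Sham (SD, n = 2 each), with 1.81 (SE 0.41, limma adjusted p = 0.0027). Of all tested entries 83.9% were called and 82.9% were called higher by the same rule, and 91.2% had both CKD libraries above both Sham libraries, so 3 of 3 is close to the background. Among the 479 log2 differences miR-122-5p ranked 5th, miR-192-5p 29th and miR-194-5p 89th from the top.

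After TMM scaling the log2 differences were 2.19 for miR-122-5p (SE 1.19, limma adjusted p = 0.31), 0.59 for miR-192-5p (SE 0.20, limma adjusted p = 0.17) and 0.24 for miR-194-5p (SE 0.12, limma adjusted p = 0.29). Here 1.88% of entries were called higher, and 28% had both CKD libraries above both Sham libraries, as miR-192-5p and miR-194-5p did and miR-122-5p did not. On recovered reads, edgeR's quasi-likelihood test gave 1.61 (adjusted p = 0.43), 0.62 (adjusted p = 0.18) and 0.24 (adjusted p = 0.30) for miR-122-5p, miR-192-5p and miR-194-5p, with 6.47% of entries called and 1.67% called higher. DESeq2 called 15.4% of entries, 5.43% higher, and none of the 3. limma on CPM recomputed without miR-143-3p called 5.86% of entries, 3.14% higher, and none of the 3. On that scale 45% of entries had both CKD libraries above both Sham libraries, as all 3 miRNAs did. For miR-122-5p this was by a narrow margin, 94.5 in CKD 2 against 92.7 in Sham 2. With TMM scaling and a replicate block it called 2.09%, of which those higher were 0.835% of entries, and none of the 3.

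The deposited call of miR-122-5p leans on variance that limma borrows from other entries. The SE from its own 4 libraries was 1.88, against the moderated 0.85, since limma combined 2 residual degrees of freedom with 9.67 prior ones. For miR-192-5p and miR-194-5p the libraries' own SEs were 0.39 and 0.28. Without CKD 1 all 3 calls were lost (limma adjusted p = 0.077, 0.086 and 0.094 for miR-122-5p, miR-192-5p and miR-194-5p), with differences of 2.83, 1.84 and 1.70. Without Sham 1 the call of miR-122-5p was lost as well (limma adjusted p = 0.077), at a log2 difference of 1.86, while without Sham 2 its log2 difference was 5.30. Each library is a pool, and no label ties libraries to separate groups of animals, so the p-values reflect the spread of these libraries alone, which may be technical.

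**Figure D2:**
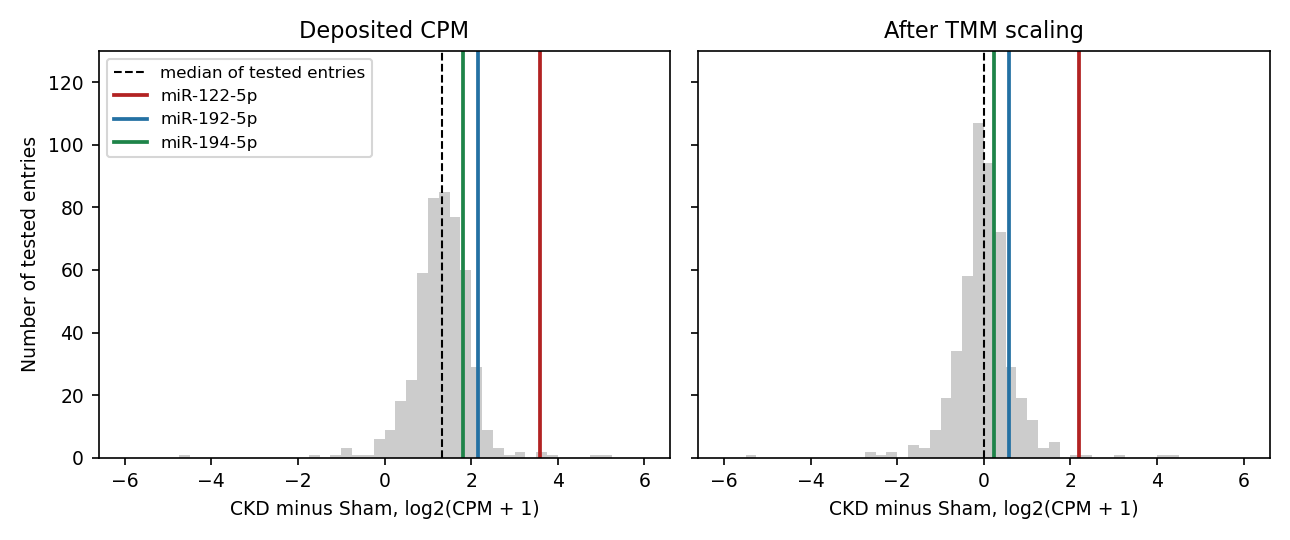
Log2 difference CKD minus Sham of the 479 tested entries on the deposited scale and after TMM scaling (gray bars, number of entries), with the 3 miRNAs as colored lines and the median as a dashed line. miR-194-5p (1.81 and 0.24, ranks 89 and 150) lies nearest the median, miR-192-5p (2.15 and 0.59, ranks 29 and 61) lies higher in the upper part, and miR-122-5p (3.58 and 2.19, rank 5 on both scales) lies in the upper tail.

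The 3 miRNAs differed in how far apart libraries of one group were. miR-122-5p was 2.87-fold higher in CKD 1 than in CKD 2 (95% counting interval 2.67 to 3.10) and 17.9-fold higher in Sham 2 than in Sham 1 (11.9 to 27.9). On the log2(CPM + 1) scale the Sham gap of 3.45 was the second widest of the 479 entries, after miR-299b-5p with 3.50, against a median of 0.44. Entries at least 2-fold apart on this scale made up 5.01% between the CKD libraries and 7.1% between the Sham libraries. miR-122-5p was the only one of the 3 at least 2-fold apart, in both pairs.

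miR-192-5p was 1.55-fold higher in CKD 1 than in CKD 2 (95% counting interval 1.47 to 1.63), a log2 gap that 51 of the 479 entries matched or exceeded. Between Sham 2 and Sham 1 it was 1.40-fold higher (1.26 to 1.57), close to the shift of most entries. miR-194-5p was 1.16-fold higher in CKD 1 than in CKD 2 (1.12 to 1.21), and 1.44-fold higher in Sham 2 than in Sham 1 (1.34 to 1.56). After TMM scaling its gap between the Sham libraries was -0.01 on the log2 scale, and 453 of 479 entries were at least as far apart.

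**Figure D3:**
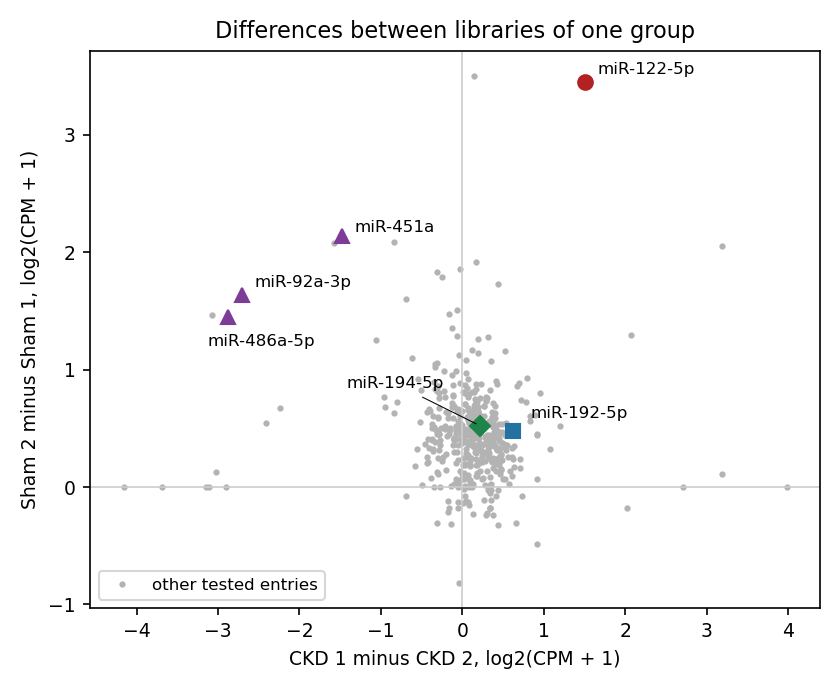
Difference between the CKD libraries (x axis, CKD 1 minus CKD 2) and between the Sham libraries (y axis, Sham 2 minus Sham 1) on the log2(CPM + 1) scale for the 479 tested entries. miR-122-5p (1.51 and 3.45) stands apart at the upper right, red cell miRNAs such as miR-486a-5p (-2.87 and 1.45) lie at the upper left, and miR-192-5p and miR-194-5p lie among the bulk of entries.

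Ratios of reads within a library do not depend on its total or on miR-143-3p. The ratio of miR-192-5p to miR-194-5p, which share the chromosome 19 locus, was 0.694 and 0.521 in CKD 1 and CKD 2, and 0.477 and 0.464 in Sham 1 and Sham 2. CKD 1 was highest, and its 95% counting interval of 0.665 to 0.724 lay above those of the other 3 libraries, while the intervals of CKD 2 (0.495 to 0.549) and both Sham libraries overlapped. The 2 against 2 comparison gave an exact two-sided permutation p = 0.333 (adjusted p = 0.952 over 10 ratios), and 0.333 is the smallest p this design allows.

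The ratio of miR-122-5p to miR-192-5p was 0.767 and 0.413 in CKD 1 and CKD 2, and 0.0455 and 0.579 in Sham 1 and Sham 2. Sham 2 lay between the CKD libraries, so the groups overlapped (exact two-sided permutation p = 0.667, adjusted p = 0.952 over 10 ratios). In Sham 1 miR-122-5p was thus scarce relative to miR-192-5p, at a ratio far below that of each other library.

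miR-192-5p and its seed relative miR-215-5p kept nearly the same ratio, 96.7 and 86.7 in CKD 1 and CKD 2, and 91.5 and 92.9 in Sham 1 and Sham 2. The counting intervals were wide, from 41.8 to 250 in Sham 1, since miR-215-5p had 38 and 26 reads in CKD and 6 and 8 reads in Sham. miR-215-5p had 2.17 and 1.56 CPM in CKD, and 0.34 and 0.47 CPM in Sham. CKD minus Sham, the log2 difference in deposited values came to 1.02 (SE 0.34, limma adjusted p = 0.015) and TMM scaling gave 0.29 (SE 0.23, limma adjusted p = 0.44). At such low levels the added 1 CPM shrinks the difference. With a pseudocount of 0.1 CPM the deposited difference was 1.95 for miR-215-5p and 2.18 for miR-192-5p. The deposited call was lost without Sham 1 (limma adjusted p = 0.10), without Sham 2 (limma adjusted p = 0.065) and with a replicate block (limma adjusted p = 0.058). The sources used here do not say how reads matching both of these near-identical miRNAs were assigned, so the miR-215-5p count is uncertain.

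The partner strands were near the floor of the data, and none reached a mean of 1 CPM. miR-122-3p had 13 and 5 reads in CKD 1 and CKD 2, and 0 and 1 read in Sham 1 and Sham 2. Its high library was the same as that of miR-122-5p. Over all libraries it made up 0.450% of the reads of the miR-122 hairpin (exact 95% interval 0.271% to 0.702%). miR-192-3p had 7 and 6 reads in CKD, and 0 and 3 reads in Sham, or 0.221% of its hairpin's reads (exact 95% interval 0.126% to 0.359%). The miR-194 partner strands together made up 0.113% (exact 95% interval 0.0618% to 0.190%). A count of 0 allows a level of up to 0.171 CPM in Sham 1, at 3 reads. miR-215-3p had 1 and 1 read in CKD, and 0 and 3 reads in Sham.

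The miRNAs whose profiles over the 4 libraries were most like each member were found by the root mean square difference of centred log2(CPM + 1) values, among 252 other named miRNAs with a mean of at least 10 CPM. For miR-194-5p they were miR-145a-3p (0.017), the partner strand of the smooth muscle miR-145a-5p, miR-191-5p (0.026) and miR-24-3p (0.043), and 98 of 252 lay within 0.2. The ratio of miR-194-5p to miR-145a-3p was 0.0824 and 0.0827 in CKD, and 0.0801 and 0.0831 in Sham, equal within counting intervals. As miR-145a-3p was picked as the closest profile over these same libraries, the steady ratio restates that choice. For miR-192-5p they were miR-214-3p (0.080), a mesenchymal miRNA, miR-125b-1-3p (0.084) and miR-1843b-5p (0.098), and 21 of 252 lay within 0.2. For miR-122-5p the most alike were miR-708-5p (1.09), miR-144-3p (1.12), a red cell miRNA, and miR-139-5p (1.13), and none lay within 0.2. These likenesses rest on 4 libraries and describe them.

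**Figure D4:**
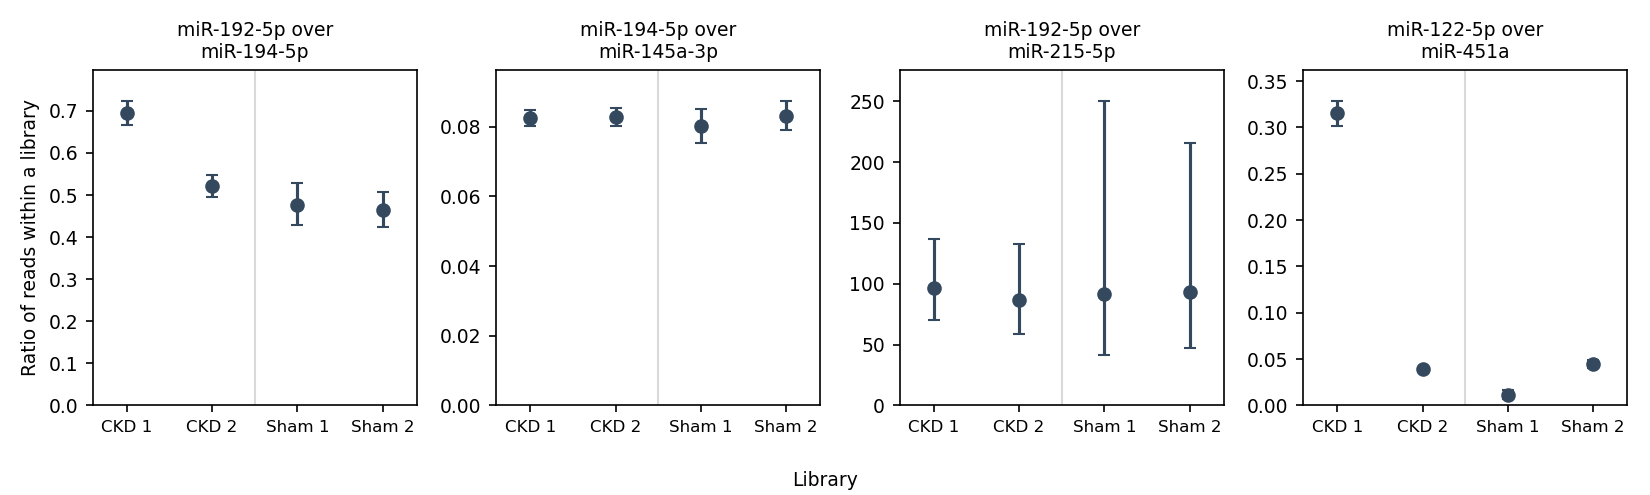
Ratios of reads within each library (y axis, linear from 0) for 4 pairs of miRNAs, with exact 95% counting intervals. miR-194-5p over miR-145a-3p, a pair picked for its likeness in these libraries, stays between 0.0801 and 0.0831. miR-192-5p over miR-194-5p is highest in CKD 1 at 0.694, and miR-122-5p over miR-451a is 0.315 in CKD 1 and at most 0.0443 elsewhere.

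Within CKD, miR-122-5p was higher in library 1 and the red cell miRNAs in library 2, while in Sham both were higher in library 2, as 90.2% of all tested entries were. miR-451a, the main red cell miRNA, had 510 and 1425 CPM in CKD 1 and CKD 2, and 130 and 574 CPM in Sham 1 and Sham 2. The ratio of miR-122-5p to miR-451a was 0.315 and 0.0393 in CKD, and 0.0110 and 0.0443 in Sham (exact two-sided permutation p = 0.667, adjusted p = 0.952 over 10 ratios). CKD 2 and Sham 2 had similar ratios, with CKD 1 above and Sham 1 below them. miR-486a-5p, another red cell miRNA, was at 445 and 3266 CPM in CKD, and 76.9 and 212 CPM in Sham, so CKD 2 stood far above the other libraries. The ratio of miR-122-5p to miR-486a-5p was 0.361 and 0.0171 in CKD 1 and CKD 2, and 0.0186 and 0.120 in Sham 1 and Sham 2. Here CKD 2 was lowest and close to Sham 1, and Sham 2 lay above both, so the order of libraries depended on the red cell miRNA used. Of the 7 red cell entries, 6 were called higher as deposited, against 82.9% of all entries, and none with TMM scaling, against 1.88%. With the identical pair counted once, their median log2 difference was 1.88 as deposited, against 1.34 over all tested entries, and 0.54 after TMM scaling, against -0.00083. The part of blood in the differences of the 3 miRNAs was not tested.

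Other liver miRNAs varied in how they lay relative to the bulk of entries. miR-802-5p, a miRNA of liver and pancreas, had 19 and 9 reads in CKD 1 and CKD 2, and no reads in either Sham library, which allows up to 0.171 and 0.178 CPM there. It was thus highest where miR-122-5p was highest, at 1.08 CPM. Its 95% counting intervals in CKD 1 (0.652 to 1.69 CPM) and CKD 2 (0.247 to 1.03 CPM) overlapped. After TMM scaling miR-802-5p had 0.597 and 0.325 CPM in CKD. The Sham limits rise on that scale (TMM factors 0.479 and 0.696), so the groups may overlap there. All 6 listed liver entries were higher in CKD 1 than in CKD 2, as were 66.6% of all tested entries. miR-148a-3p, abundant in liver but widely expressed, had 3524 and 3195 CPM in CKD, and 1634 and 2630 CPM in Sham. miR-101a-3p, likewise widely expressed, had 2002 and 1807 CPM in CKD, and 937 and 1185 CPM in Sham. Of 6 listed liver entries 4 were tested, and 3 of these were called higher as deposited, against 82.9% of all entries (median log2 difference 1.08, against 1.34 over all tested entries). With TMM scaling 2 were called lower, miR-148a-3p by -0.89 (SE 0.11, limma adjusted p = 0.022) and miR-101a-3p by -0.73 (SE 0.12, limma adjusted p = 0.043). On that scale 7.72% of all entries were called in either direction, and 28 of 479 were called lower. DESeq2 also called both lower, while edgeR called miR-148a-3p (adjusted p = 0.028) but not miR-101a-3p (adjusted p = 0.051). limma on CPM without miR-143-3p called neither (-0.63, adjusted p = 0.066 for miR-148a-3p, and -0.47, adjusted p = 0.11 for miR-101a-3p).

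Other kidney tubule miRNAs lay on both sides of the bulk of entries after TMM scaling, with log2 differences of -0.54 (miR-10b-5p) to 0.63 (miR-204-5p). All 5 tested of 7 listed were called higher as deposited, against 82.9% of all entries, and none with TMM scaling, against 1.88% called higher. Their medians were 1.55 and -0.04, against 1.34 and -0.00083 over all tested entries. DESeq2, which called 48 of 479 entries lower, called miR-10b-5p lower (log2 difference -0.50, adjusted p = 0.010). limma with TMM scaling (adjusted p = 0.11) and edgeR (adjusted p = 0.13) did not call it. miR-10a-5p, also expressed in smooth muscle, had 7416 and 9298 CPM in CKD, and 3169 and 4449 CPM in Sham. miR-30a-5p, a kidney epithelial miRNA that is broadly expressed, had 10474 and 8068 CPM in CKD, and 2315 and 3303 CPM in Sham. miR-204-5p, made in kidney epithelium and vascular cells, differed by 2.18 on the log2 scale as deposited (SE 0.36, limma adjusted p = 0.0010) and 0.63 after TMM scaling (SE 0.20, limma adjusted p = 0.14).

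General epithelial miRNAs were present at low levels. The 10 entries of the miR-200 and miR-183 groups with miR-203-3p and miR-205-5p summed to 288 and 218 CPM in CKD 1 and CKD 2, and 58.0 and 70.8 CPM in Sham 1 and Sham 2, with the highest sum in CKD 1. By entry, 7 were higher in CKD 1 than in CKD 2 and 3 were lower, miR-182-5p (20.1 and 31.2 CPM), miR-183-5p (9.41 and 17.2 CPM) and miR-96-5p (7.41 and 11.3 CPM), where 66.6% of all tested entries were higher in CKD 1. As deposited 9 of 10 were called higher, near the 82.9% of all entries, and none with TMM scaling, with medians of 1.75 and 0.32. miR-203-3p, a miRNA of stratified epithelium, had 106 and 76.4 CPM in CKD, and 19.1 and 26.7 CPM in Sham. miR-200a-3p, a repressor of Zeb1 and Zeb2, had 70.9 and 37.0 CPM in CKD, and 18.7 and 13.1 CPM in Sham. The part of these cells in the miR-192-5p difference was not tested.

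Pancreatic miRNAs were nearly absent, with miR-216a-5p, miR-216b-5p and miR-217-5p at 0 reads in both Sham libraries and at 1 to 3 reads in the CKD libraries. The islet and gut endocrine miR-375-3p, the only 1 of 4 pancreatic entries tested, had 3.99 and 2.16 CPM in CKD, and 0.74 and 0.41 CPM in Sham. It was called higher on the deposited scale (log2 difference 1.34, SE 0.35, limma adjusted p = 0.0047) and lay at 0.43 after TMM scaling (SE 0.34, limma adjusted p = 0.44).

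Leukocyte and platelet miRNAs gave 4 of 5 entries higher as deposited, near the 82.9% of all entries, and none with TMM scaling, with medians of 1.46 and -0.09. miR-142a-5p, a pan-leukocyte miRNA, had 148 and 150 CPM in CKD, and 24.1 and 90.1 CPM in Sham, and miR-223-3p, a myeloid and platelet miRNA, 147 and 195 CPM in CKD, and 25.6 and 41.2 CPM in Sham. Sham 1 was lowest for both, in a pair where 90.2% of all tested entries were lower in Sham 1 than in Sham 2. DESeq2, which called 5.43% of entries higher, called miR-223-3p higher (log2 difference 0.85, adjusted p = 0.010). limma with TMM scaling (0.78, adjusted p = 0.11) and edgeR (0.81, adjusted p = 0.12) did not call miR-223-3p. miR-142a-3p, the other strand of the miR-142a hairpin, had 18.5 and 30.4 CPM in CKD, and 10.4 and 33.5 CPM in Sham. It was the 1 entry of the 5 not called as deposited (log2 difference 0.32, SE 0.48, limma adjusted p = 0.54). After TMM scaling it was the lowest of the 5, at -1.18 (SE 0.47, limma adjusted p = 0.22). Among 6 vascular wall entries, the deposited values gave 4 higher (82.9% over all entries) and 1 lower (5 of 479 over all entries). TMM scaling gave 2 lower (28 of 479 over all entries), and the medians were 1.24 as deposited and -0.34 after TMM scaling. Among them miR-145a-5p, a smooth muscle miRNA, had 67970 and 75726 CPM in CKD, and 33419 and 47242 CPM in Sham. Its log2 difference was 0.85 as deposited (SE 0.22, limma adjusted p = 0.0043). TMM scaling reversed the direction and called it lower, at -0.73 (SE 0.13, limma adjusted p = 0.044), while edgeR did not call it (-0.73, adjusted p = 0.054). miR-145a-3p, closest in profile to miR-194-5p, differed by 1.81 on the log2 scale as deposited (SE 0.37, limma adjusted p = 0.0018) and 0.22 after TMM scaling (SE 0.11, limma adjusted p = 0.29).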

How the data were processed

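Small RNA of 18 to 30 nucleotides from pooled aortas was sequenced after adaptor ligation, per the labels' protocols. Per the submitters' processing notes, Bowtie and the GRCm38 build were used; the sources used here do not give annotation, counting or unit. The deposited values sum to about 1000000 per library and were read as CPM. In 3 of the 4 files names stand above values, and the 2 were paired by order. In all libraries 100% of non-zero values were whole reads within 0.005 CPM.

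limma 3.58.1 (R 4.3.3) was fitted with a mean-variance trend to log2(CPM + 1) of the 479 entries with a mean of at least 1 CPM, two-sided, with Benjamini-Hochberg adjustment at 0.05. This scale understates changes of low entries. TMM factors (1.81 and 1.66 in CKD, 0.479 and 0.696 in Sham) were computed on the tested entries. edgeR 4.0.16 on recovered reads called 31 entries; DESeq2 1.42.0, other filters, scalings and pseudocounts, a replicate block and leaving out each library were alternatives. The tests were also run on simulated counts with known changes, in which miR-143-3p was not among the changed entries. Intervals and floors (3 reads) cover counting error only, since no molecular identifiers are described.

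The members and lists were chosen with earlier results of these data known. Named entries were the members, partner strands and miR-215, the 3 closest profiles per member, and the 2 most abundant of each list (other liver, other kidney tubule, epithelial, pancreas, red cell, leukocyte and platelet, vascular wall). miR-10b-5p, miR-96-5p, miR-182-5p, miR-183-5p, miR-204-5p, miR-299b-5p, miR-802-5p and the rarest pancreatic entries were named in addition, after their values were seen. The same holds for miR-142a-3p and miR-451a.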

Additional observations from a re-analysis of the deposited data

How the results depend on the processing

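On the deposited scale, 402 entries were called; the counts were 37 with TMM scaling, 33 with median-of-ratios scaling, 28 with miR-143-3p left out of the total, 31 with edgeR, 74 with DESeq2, and 241 of 265 entries with a mean of at least 10 CPM. Leaving out single libraries gave 143 (without CKD 1), 241 (without CKD 2) and up to 392 calls, the lone library of a group being assumed to vary like the other group, and 8, 5, 7 and 13 with TMM scaling (without CKD 1, CKD 2, Sham 1 and Sham 2). Log2 differences of miR-122-5p, miR-192-5p and miR-194-5p stayed positive in every alternative run but missed the threshold under each rescaling or count test. They were 2.19, 0.59 and 0.24 with TMM scaling, 2.24, 0.64 and 0.29 with median-of-ratios scaling, 2.56, 0.85 and 0.50 without miR-143-3p, 1.61, 0.62 and 0.24 with edgeR, and 1.67, 0.65 and 0.27 with DESeq2 (adjusted p = 0.54, 0.052 and 0.088). Without a filter miR-122-5p (3.58) missed it too (limma adjusted p = 0.12). Leaving out single libraries, the ranges were 1.86 to 5.30, 1.84 to 2.46 and 1.55 to 2.07 as deposited, and with TMM scaling, in the library order above, the values were 1.47, 2.84, 0.56 and 3.85 for miR-122-5p, 0.34, 0.84, 0.60 and 0.57 for miR-192-5p, and 0.19, 0.28, 0.23 and 0.24 for miR-194-5p. The cause of these losses was not tested. As labels share replicate numbers without stating a pairing (correlation of same-numbered deviations 0.0999 as deposited and 0.118 with TMM scaling, over 479 entries), a replicate block is given here: it left 352 calls with all 3 miRNAs among them, lost that of miR-215-5p (limma adjusted p = 0.058), and with TMM scaling left 10 calls and gave 2.19, 0.59 and 0.24 for the 3, none past the threshold. With 25 reads of miR-122-5p in Sham 1, depth limits the partner strands and miR-215-5p more than the 3 miRNAs.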
